A study of Mus musculus with 12 samples.

Results

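Integrins and laminins are the receptors and the basement membrane proteins through which fibroblasts hold on to their surroundings. Their subunit genes were chosen by symbol: Itga or Itgb with a digit or letter suffix, and Lama, Lamb or Lamc with a digit, on probe sets to which the platform annotation gives a single symbol. The rule found 32 of the 12393 genes on the array, carried by 57 probe sets. They comprised 14 integrin alpha subunits, 8 integrin beta subunits and 10 laminin chains. Of the 32, 28 passed the filter on dim genes and were tested among 10674 genes. Itgam, Itgax, Itgb6 and Lamb3 did not pass it, and Itga1, Itga10, Itga11, Itgad and Itgb8 were not analysed here.

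The cells were mouse embryonic fibroblasts (MEFs), mixed mesenchymal cells grown out from embryos and kept as primary cultures. Per the labels, they were moved from medium with 10% serum into medium with 15% serum and 40 ng/ml bFGF, a fibroblast growth factor, and given the chemical combination 6TCF or SGCF. Days 0, 5 and 10 were sampled with 2 arrays each per combination, making 12 arrays in 6 groups. The sources used here state neither the components and doses of the combinations nor the strain, genotype and age of the embryos. No array is labelled as untreated at day 5 or 10, so a change from day 0 also holds time in culture and the change of medium. Whether the arrays of a group come from separate cultures is not stated either, and p-values may then measure technical spread between arrays.

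An integrin is a pair of 1 alpha and 1 beta subunit, and the pairing sets which matrix protein the cell can bind. Alpha 5, alpha 8 and alpha v read the RGD tripeptide found in fibronectin, nephronectin and vitronectin, whereas alpha 3, alpha 6 and alpha 7 bind laminins. Beta 1 pairs with most alpha subunits, beta 5 only with alpha v, beta 4 only with alpha 6 and beta 2 with the alpha subunits of leukocytes. A laminin is a trimer of 1 alpha, 1 beta and 1 gamma chain that polymerises into the basement membrane sheet.

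As deposited, 6TCF arrays were brighter, with median intensities of 102.4 to 142 against 60.9 to 86.2 for SGCF. Where the arms are compared, arm and any difference in array processing cannot be told apart. Normalized arrays within a group had correlations of 0.985 to 0.997 over genes. Actin's 3' minus 5' probe set signal in log2, a measure of RNA quality, averaged 0.34, 0.82 and 1.04 at days 0, 5 and 10 of 6TCF. It averaged 0.33, 0.45 and 0.46 in SGCF, while Gapdh gave 0.39, 0.50 and 0.49 in 6TCF and -0.02, 0.10 and 0.11 in SGCF. Their part in the results was not tested. All 11 fibroblast markers passed the filter, with a summed linear level of 50355 to 67912 over the arrays. In bulk cultures, fewer cells of a type and less RNA per cell cannot be told apart.

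Under 6TCF, the broadly used integrin genes Itgb1, Itgav and Itga5 fell at both days, while Itga6, Itgb4, Itgb7 and Lama4 rose by day 5. By day 5, 13 of the 28 subunit genes tested were called, 5 higher and 8 lower, where 27.7% of all genes were called, 15.1% higher and 12.6% lower. The 5 include Lama3, which passed the filter only through this group. A call here is a Benjamini-Hochberg adjusted p under 0.05 from limma over all genes tested. The count was lower without any 1 of the 4 arrays compared, and so was the share of all genes called. By day 10 there were again 13, 4 higher and 9 lower, a share near the 43.2% of all genes, of which 23.2% were higher and 20.0% lower. The members' median log2 change was -0.03 at day 5 and -0.19 at day 10, against -0.00037 and -0.01 over all genes tested. Those at least 2-fold changed were 4 genes at each day, all lower: Itgb1, Itgav, Itga5 and Lama2.

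Under SGCF, more of these genes fell than rose. By day 5, 9 of 28 were called, 1 higher and 8 lower, where 25.5% of all genes were called, 12.8% higher and 12.7% lower. By day 10, 11 of 28 were called, 3 higher and 8 lower, a share near the 38.8% of all genes, of which 20.5% were higher and 18.3% lower. The members' median log2 change was -0.22 and -0.20, against 0.02 and 0.03 over all genes. Changes of at least 2-fold were 1 rise, of Itga6, and 4 falls, of Itgb1, Itga8, Itgb2 and Itgb5, at day 5, and 1 rise, of Lama4, and 2 falls, of Itgb1 and Itgb2, at day 10.

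**Figure D1:**
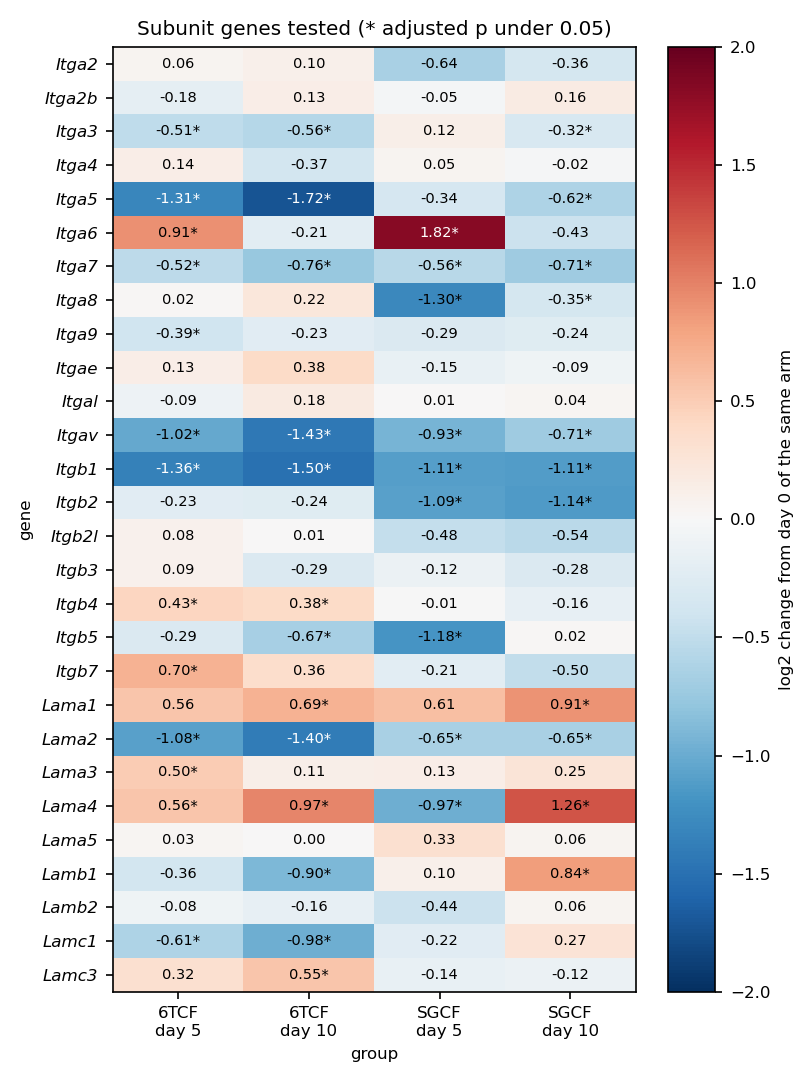
Log2 change from day 0 of the same arm (colour and printed value) for the 28 subunit genes tested (rows) in the 4 comparisons with day 0 (columns). Asterisks mark a limma adjusted p under 0.05. Itgb1, Itgav, Itga7 and Lama2 are lower with an asterisk in all 4 columns, and Itga6 is higher at day 5 in both arms.

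Promoters are shown for the 4 genes lower by at least 2-fold under 6TCF and for Lamb1, whose change differed most between the arms at day 10. RefSeq promoter windows of assembly GRCm38.p6 were matched by symbol for 20 of the 32 genes. Each window printed holds the 250 bases before a transcript start of that table, 5′ to 3′ on the gene's strand. That start need not be the outer end of the gene: the Itgav window lies inside the gene's annotated span, and the Lama2 and Lamb1 windows overlap theirs. Capitals mark matches on either strand to 4 motifs of factors that act on adhesion and growth genes: the CArG box of SRF, GGAATG of TEAD, TGANTCA of AP-1 and GGGCGG of Sp1. No marked matches overlap. The windows are chr8:128685404-128685653 (plus strand) for Itgb1, chr2:83724147-83724396 (plus) for Itgav, chr15:103366792-103367041 (minus) for Itga5, chr10:27616943-27617192 (minus) for Lama2 and chr12:31265043-31265292 (plus) for Lamb1.
Itgb1: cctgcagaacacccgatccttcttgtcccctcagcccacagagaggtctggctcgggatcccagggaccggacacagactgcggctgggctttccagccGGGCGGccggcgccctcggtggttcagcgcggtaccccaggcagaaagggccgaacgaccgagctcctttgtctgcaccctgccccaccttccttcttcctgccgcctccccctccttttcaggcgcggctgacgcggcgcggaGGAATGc
Itgav: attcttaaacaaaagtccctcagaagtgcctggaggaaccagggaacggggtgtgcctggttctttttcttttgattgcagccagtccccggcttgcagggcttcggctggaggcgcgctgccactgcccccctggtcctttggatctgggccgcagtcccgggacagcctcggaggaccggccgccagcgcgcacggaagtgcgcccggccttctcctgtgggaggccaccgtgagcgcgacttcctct
Itga5: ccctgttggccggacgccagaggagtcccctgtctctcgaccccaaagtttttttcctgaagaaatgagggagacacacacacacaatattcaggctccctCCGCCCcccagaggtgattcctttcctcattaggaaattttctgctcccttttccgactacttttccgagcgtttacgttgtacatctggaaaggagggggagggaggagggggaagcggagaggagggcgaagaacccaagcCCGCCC
Lama2: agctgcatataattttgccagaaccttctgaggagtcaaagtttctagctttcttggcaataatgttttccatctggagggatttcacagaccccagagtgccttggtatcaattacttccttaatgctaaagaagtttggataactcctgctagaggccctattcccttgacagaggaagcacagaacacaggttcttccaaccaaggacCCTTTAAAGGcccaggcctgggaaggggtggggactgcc
Lamb1: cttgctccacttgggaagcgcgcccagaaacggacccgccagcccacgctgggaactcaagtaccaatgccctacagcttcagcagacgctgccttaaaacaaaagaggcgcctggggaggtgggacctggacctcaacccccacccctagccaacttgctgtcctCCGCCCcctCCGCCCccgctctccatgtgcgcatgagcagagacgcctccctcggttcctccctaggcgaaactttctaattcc

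The Itgb1 window holds 1 TEAD and 1 Sp1 match, and the Itgav window holds none of the 4. Both Itga5 and Lamb1 hold 2 Sp1 matches, and Lama2 holds a CArG box. Over all 32851 promoters of the table, 1.47% hold a CArG box, 12.6% the TEAD motif, 6.75% the AP-1 motif and 32.7% the Sp1 motif. Among the 20 matched members, the CArG box is in Lama2 and Itgb6, the TEAD motif in Itgb1 and Lamb3, and the AP-1 motif in Itgax. The Sp1 motif is in 8: Itga3, Itga4, Itga5, Itgam, Itgb1, Itgb5, Lama5 and Lamb1. A match is a description of letters and says nothing of binding.

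Itgb1, the beta subunit shared by most fibroblast integrins (chromosome 8, 128685654 to 128733579, GRCm38.p6), fell in both arms and had done so by day 5. All levels below are on the log2(intensity + 16) scale, with replicate 1 given before replicate 2. In 6TCF the Itgb1 arrays stood at 11.75 and 11.78 at day 0, 10.43 and 10.38 at day 5 and 10.29 and 10.25 at day 10. The SGCF arrays stood at 11.65 and 11.72, then 10.50 and 10.66, then 10.53 and 10.62. Every day 0 array lay above every later array. The log2 change under 6TCF was -1.36 ± 0.11 (SE, limma adjusted p = 2.77e-06) at day 5 and -1.50 ± 0.11 (7.40e-07) at day 10. Under SGCF it was -1.11 ± 0.11 at both days, with adjusted p of 1.56e-05 and 9.87e-06. For the change to day 10, SGCF minus 6TCF was 0.38 ± 0.16 and not called (adjusted p = 0.0934). Of the other 5 probe sets of Itgb1, 3 passed the filter and changed by -1.30, -1.04 and -0.60 at day 5 of 6TCF. Averaging all 6 gave -0.76 there, still called.

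Itgav, the alpha v subunit (chromosome 2, 83722303 to 83806917), fell as well. Its 6TCF arrays went from 12.21 and 12.39 at day 0 to 11.29 and 11.26 at day 5 and 10.81 and 10.93 at day 10. In SGCF they went from 12.10 and 11.77 to 10.94 and 11.08, then 11.19 and 11.26. No later array reached the day 0 arrays of its arm. The change was -1.02 ± 0.14 (adjusted p = 0.000125) and -1.43 ± 0.14 (5.42e-06) under 6TCF, and -0.93 ± 0.14 (0.000303) and -0.71 ± 0.14 (0.00139) under SGCF. By day 10 the fall was smaller under SGCF by 0.72 ± 0.19 (adjusted p = 0.0185). That difference was not called without replicate 2 of 6TCF day 0 (0.63), without replicate 1 of 6TCF day 10 (0.66), without replicate 2 of SGCF day 10 (0.69) or when probe sets were averaged (0.43).

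Itga5, the fibronectin receptor's alpha subunit (chromosome 15, 103344286 to 103366791), separated the arms. Under 6TCF it went from 7.65 and 7.51 to 6.41 and 6.12 at day 5 and 5.81 and 5.90 at day 10. Under SGCF it started lower, at 6.69 and 6.54, and then stood at 6.19 and 6.36 and at 6.04 and 5.95. The arms thus lay apart at day 0 and overlapped at day 5. The change was -1.31 ± 0.13 (adjusted p = 1.58e-05) and -1.72 ± 0.13 (1.01e-06) under 6TCF, against -0.34 ± 0.13 (0.0846) and -0.62 ± 0.13 (0.0032) under SGCF. Between the arms, the change differed by 0.97 ± 0.19 at day 5 (adjusted p = 0.00638) and 1.11 ± 0.19 at day 10 (0.00182), close in size to the day 0 difference of -0.97 ± 0.13 (0.000962). A second, dimmer probe set changed by -0.53 and -0.54 under 6TCF and by 0.32 and 0.06 under SGCF. With both averaged, the day 10 change was -1.13 under 6TCF and -0.28 under SGCF, the latter no longer called (adjusted p = 0.0581).

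**Figure D2:**
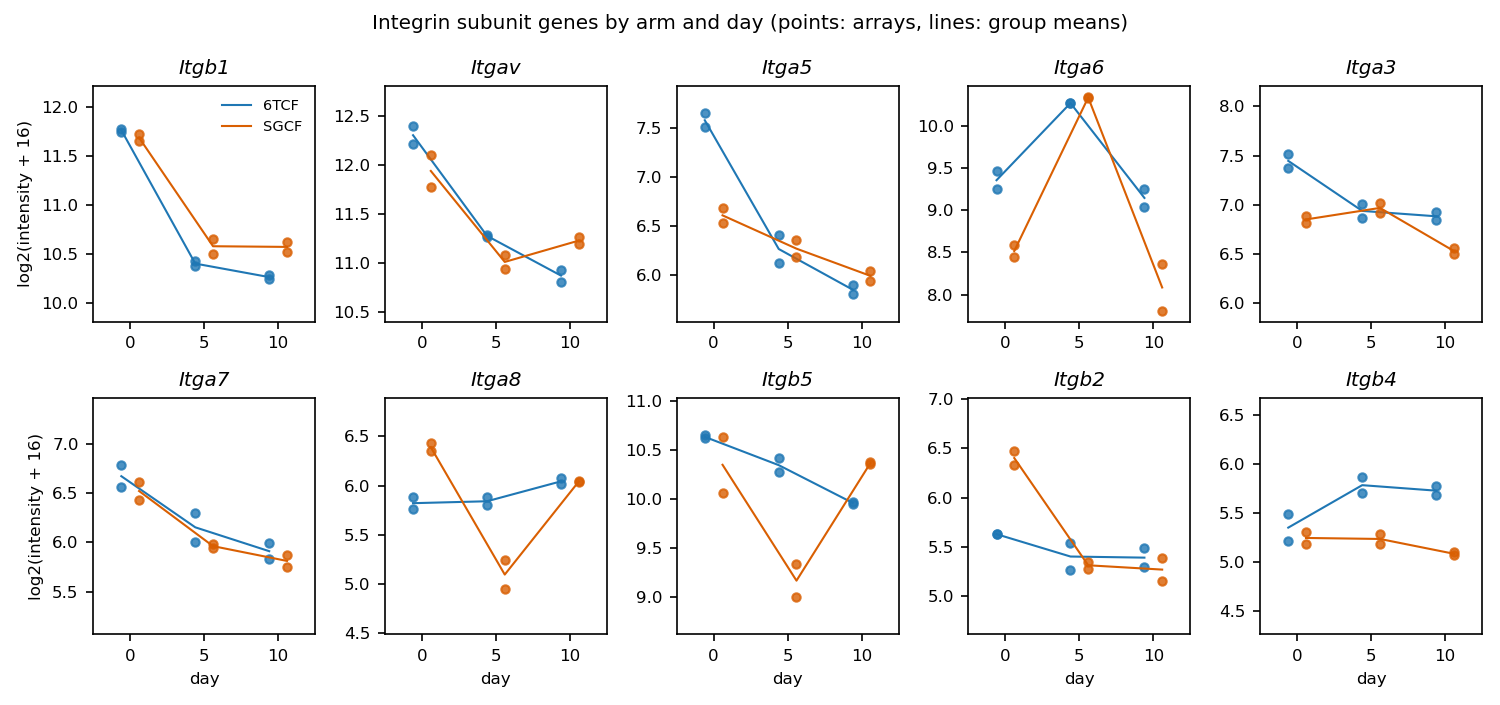
Level of 10 integrin subunit genes (y axis, log2(intensity + 16), own range per panel) by day (x axis) in the 6TCF (blue) and SGCF (orange) arms. Points are arrays, 2 per group, and lines join group means. Itgb1 and Itgav fall in both arms, Itga6 peaks at day 5 in both, and Itga8 and Itgb5 dip at day 5 in SGCF.

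Among the laminin-binding alpha subunits, Itga6 moved opposite to Itgb1 and only for a time. Itga6 (chromosome 2, 71786886 to 71858427) encodes alpha 6, which pairs with beta 1 or beta 4. Its 6TCF arrays stood at 9.25 and 9.46 at day 0, 10.27 and 10.27 at day 5 and 9.04 and 9.25 at day 10. The SGCF arrays stood at 8.45 and 8.58, 10.33 and 10.35, and 8.36 and 7.80. The 4 day 5 arrays lay above the other 8, and the day 10 arrays were back near or below day 0. The rise by day 5 was 0.91 ± 0.17 (limma adjusted p = 0.00154) under 6TCF and 1.82 ± 0.17 (7.29e-06) under SGCF. From day 5 to day 10 Itga6 fell by 1.12 ± 0.17 (0.00187) under 6TCF and fell by 2.25 ± 0.17 (3.66e-06) under SGCF, and at day 10 against day 0 it was not called in either arm (-0.21 and -0.43). It was the 1 member called of 28 between days 5 and 10 of 6TCF, where 15.8% of all genes were called (8.69% higher, 7.12% lower). Without replicate 2 of 6TCF day 5, more members but a smaller share of all genes were called. The second probe set of Itga6 gave 1.10 and 2.20 at day 5. The larger rise under SGCF differed by 0.91 ± 0.24 (adjusted p = 0.0339), a call lost without any 1 of 7 of the 8 arrays compared (0.80 to 1.01) and with a pseudocount of 1 (0.94).

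Itga7, the alpha 7 subunit best known from muscle, fell in both arms. Its group means went from 6.67 to 6.15 and 5.91 under 6TCF and from 6.52 to 5.96 and 5.81 under SGCF. At day 10 the change was -0.76 ± 0.14 (adjusted p = 0.00095) and -0.71 ± 0.14 (0.00179), or -0.48 and -0.43 with a pseudocount of 64, still called. The day 5 changes, -0.52 and -0.56, were called but not without replicate 1 of 6TCF day 0 (-0.41) or replicate 2 of 6TCF day 5 (-0.37), nor without replicate 1 of SGCF day 0 (-0.47) or of SGCF day 5 (-0.54). Summed skeletal muscle markers, 10 of 11 above the filter, were 512 to 548 at day 0 and 645 to 1915 at day 10 of 6TCF. In SGCF they were 498 to 525 and 587 to 698. The 6TCF day 10 arrays lay far apart, with the muscle marker Mylpf at 6.78 and 9.34. Their part in the Itga7 result was not tested.

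Itga3, the alpha 3 subunit, fell under 6TCF by 0.51 ± 0.12 (adjusted p = 0.00608) and 0.56 ± 0.12 (0.00195). Under SGCF its change was 0.12 ± 0.12 at day 5 (0.511) and -0.32 ± 0.12 at day 10 (0.0451), the latter lost without any 1 of the 4 arrays compared (-0.28 to -0.36). Its 3 probe sets disagreed, at -0.51, -0.47 and -0.01 for day 5 of 6TCF. With them averaged, neither 6TCF change was called (-0.33 and -0.31), nor was the SGCF change at day 10 (-0.06). The latter was also lost with median scaling (-0.32), a pseudocount of 64 (-0.22) and a replicate block (adjusted p = 0.0597). The day 5 call also ended without replicate 2 of 6TCF day 0 (-0.44).

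Itga8 and Itgb5, both subunits of RGD-binding integrins, dipped at day 5 under SGCF. Itga8 (chromosome 2, 12106632 to 12301985), the nephronectin receptor's alpha subunit, stood at 6.43 and 6.35 at day 0 of SGCF, 5.24 and 4.95 at day 5 and 6.04 and 6.04 at day 10. The 6TCF arrays stayed between 5.76 and 6.07 on all days. Both SGCF day 5 arrays were thus the lowest of the 12. The change by day 5 was -1.30 ± 0.12 (limma adjusted p = 1.02e-05) under SGCF and 0.02 ± 0.12 (0.934) under 6TCF, a difference of -1.32 ± 0.18 (0.000662). From day 5 to 10 of SGCF it rose by 0.95 ± 0.12 (0.000228). Since Itga8 is dim, the size depends on the pseudocount: with 64 the day 5 change was -0.69 and the difference -0.70, and the later rise was 0.48 with 64 and 1.42 with 1, all still called. The SGCF change at day 10, -0.35 ± 0.12 (0.0434), was not called without any 1 of its 4 arrays (-0.31 to -0.39), with a pseudocount of 1 (-0.44) or 64 (-0.21) or with a replicate block (adjusted p = 0.0521).

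Itgb5 (chromosome 16, 33829665 to 33949338), the alpha v partner for vitronectin, stood at 10.63 and 10.06 at day 0 of SGCF, 9.0 and 9.33 at day 5 and 10.38 and 10.35 at day 10. Under 6TCF it stood at 10.65 and 10.62, 10.27 and 10.42, and 9.95 and 9.97. In SGCF it therefore went down and came back, while in 6TCF the day 10 arrays were the lowest. The SGCF change was -1.18 ± 0.17 (adjusted p = 0.000314) by day 5, followed by a rise of 1.20 ± 0.17 (0.000417) to day 10. Under 6TCF the change was -0.29 ± 0.17 (0.257) at day 5 and -0.67 ± 0.17 (0.00787) at day 10. All 4 probe sets moved alike, with SGCF day 5 changes of -1.14 to -1.27. The difference between the arms at day 5, -0.89 ± 0.24 (0.0417), was lost without any 1 of 6 of the 8 arrays compared (-0.61 to -0.96), with a replicate block (0.0588), with a pseudocount of 1 (-0.91) and with probe sets averaged (-0.84).

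Itgb4, the beta subunit of hemidesmosomes, rose by 0.43 ± 0.13 (adjusted p = 0.026) at day 5 and 0.38 ± 0.13 (0.0333) at day 10 of 6TCF. Its arrays there were 5.21 and 5.49 at day 0 and 5.69 to 5.87 later, and the SGCF arrays were 5.07 to 5.31. The day 10 call ended without replicate 1 of 6TCF day 0 (0.24) and without either 6TCF day 10 array (0.42 and 0.33), and the day 5 call without replicate 1 of day 0 (0.29) or replicate 2 of day 5 (0.35). Summed epithelial markers, 10 of 12 above the filter, were higher beside it: 993 to 1059 at day 0, 2863 to 2930 at day 5 and 4030 to 4439 at day 10 of 6TCF, against 568 to 906 on all SGCF arrays. Krt8, Krt18 and Krt19 were the brightest of them. At day 5 of 6TCF 4 of the 10 were called higher and 1 lower, against 15.1% and 12.6% of all genes. At day 10, 6 were higher and 1 lower, against 23.2% and 20.0%. Cdh1, a defining epithelial marker, did not pass the filter. Their part in the result was not tested.

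Itga9, which binds tenascin, fell by 0.39 ± 0.11 (adjusted p = 0.0207) at day 5 of 6TCF, a call lost without either day 0 array (-0.45 and -0.34) or without replicate 2 of day 5 (-0.33). With its probe sets averaged, the call at day 5 of 6TCF was lost too. One of its other probe sets changed by -0.97 and -0.90 under SGCF, where the set that stood for the gene changed by -0.29 and -0.24. Itga2, Itga2b, Itga4 and Itgb3, subunits for collagen, fibrinogen, VCAM1 and vitronectin binding, were called in none of the 9 comparisons. Their group means lay between 5.05 and 7.25. With a pseudocount of 64 the 6TCF calls of the dim Itga9 (-0.22) and Itgb4 (0.22 at day 5, 0.19 at day 10) were also lost.

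Itgb2, the beta subunit of leukocyte integrins (chromosome 10, 77530329 to 77565708), fell under SGCF from a higher start. Its SGCF arrays stood at 6.47 and 6.33 at day 0, 5.34 and 5.28 at day 5 and 5.15 and 5.38 at day 10, and its 6TCF arrays at 5.63 and 5.62, 5.26 and 5.54, and 5.48 and 5.29. The SGCF day 0 arrays were the 2 highest. At day 0 it was 0.77 ± 0.14 higher in SGCF (limma adjusted p = 0.00402). The SGCF change was -1.09 ± 0.14 (9.34e-05) at day 5 and -1.14 ± 0.14 (4.42e-05) at day 10, against -0.23 ± 0.14 (0.257) and -0.24 ± 0.14 (0.184) under 6TCF. With a pseudocount of 64 the SGCF changes were -0.60 and -0.62 and the day 0 difference 0.45, all still called.

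Macrophage and other leukocyte markers moved beside Itgb2. All 18 passed the filter, with a summed linear level of 8254 to 9244 at day 0 of SGCF, 952 to 1164 at day 5 and 881 to 977 at day 10. In 6TCF the sums were 3739 to 3942, 1250 to 1399 and 2164 to 2326. At day 10 of SGCF 17 of the 18 were called lower, against 18.3% of all genes, and 1 higher. At day 10 of 6TCF 12 were lower, against 20.0%, and 2 higher, Cd14 and Cd53. At day 0, 17 were higher in SGCF, against 8.59% of all genes. Ptprc, the pan-leukocyte marker CD45, stood at 6.78 and 6.60 at day 0 of SGCF and at 4.59 to 4.87 afterwards. Their part in the Itgb2 result was not tested. Other leukocyte subunits did not follow it as calls: Itgal, Itgae and Itgb2l were called nowhere, and Itgam, the macrophage partner of beta 2, had group means of 4.64 to 5.02, under the filter level of 5.25. Itgb7 rose by 0.70 ± 0.23 (adjusted p = 0.0399) at day 5 of 6TCF alone, a call lost without any 1 of 3 of the 4 arrays compared (0.52 to 0.77), with a pseudocount of 64 (0.40) and with no filter (adjusted p = 0.0506). Itgae passed the filter only through 6TCF day 10.

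The laminin alpha chains parted in direction. Lama2, the alpha chain of merosin (chromosome 10, 26981285 to 27617191), fell in both arms. Its 6TCF arrays stood at 7.73 and 7.99 at day 0, 6.82 and 6.73 at day 5 and 6.35 and 6.58 at day 10. In SGCF they stood at 7.81 and 7.49, 6.99 and 7.0, and 6.90 and 7.09. Day 0 arrays lay above all later ones. The change was -1.08 ± 0.15 (limma adjusted p = 0.000172) and -1.40 ± 0.15 (1.44e-05) under 6TCF, and -0.65 ± 0.15 at both days under SGCF (0.00664 and 0.00446). The day 10 change differed between the arms by 0.75 ± 0.21 (0.0235), a call lost without replicate 2 of 6TCF day 0 (0.61), replicate 1 of 6TCF day 10 (0.63), or replicate 2 of SGCF day 0 (0.59) or day 10 (0.65).

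Lama4, the alpha chain of endothelial and mesenchymal laminins (chromosome 10, 38965515 to 39110188), was the laminin chain with the widest swing. Under 6TCF it stood at 8.08 and 7.89, 8.40 and 8.68, and 8.90 and 9.02. Under SGCF it stood at 9.27 and 8.73, 7.98 and 8.08, and 10.14 and 10.38. It therefore climbed under 6TCF, while under SGCF it dipped at day 5 and ended above every other array. The 6TCF change was 0.56 ± 0.18 (adjusted p = 0.0342) and 0.97 ± 0.18 (0.00089), and the SGCF change -0.97 ± 0.18 (0.00164) and 1.26 ± 0.18 (0.000151). From day 5 to day 10 of SGCF it rose by 2.23 ± 0.18 (6.04e-06). The arms differed by -1.53 ± 0.25 (0.00228) in the change to day 5 and by 0.29 ± 0.25 (0.432) in that to day 10. The 6TCF day 5 call was lost without either day 0 array (0.66 and 0.46), without replicate 2 of day 5 (0.42) and with median scaling (0.50). A second, dim probe set did not follow, at -0.18, -0.09, -0.55 and 0.04 in the same order, and with both averaged the 4 called changes were 0.19 (no longer called), 0.44, -0.76 and 0.65. Summed endothelial markers, 7 of 11 above the filter, were 442 to 523 at day 0 of 6TCF and 438 to 477 in SGCF, and 510 to 715 on all later arrays. The median log2 level of the 11 did not rise alike: it was 5.47, 5.13 and 5.11 over the days in 6TCF, and 5.22, 5.28 and 5.08 in SGCF. Pecam1, Tek, Tie1 and Vwf did not pass the filter. Their part in the Lama4 result was not tested.

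Lama1, the alpha chain of the early embryonic laminin, rose by day 10 in both arms, by 0.69 ± 0.21 (adjusted p = 0.0207) under 6TCF and 0.91 ± 0.21 (0.00544) under SGCF. It stayed dim, with group means of 5.19 to 6.12. The 6TCF call was lost without any 1 of its 4 arrays (0.61 to 0.77), and the SGCF value was 0.55, still called, without replicate 2 of day 0. With a pseudocount of 64 the values were 0.37 and 0.46, both still called. Lama3, an epithelial chain, passed the filter only through 6TCF day 5, where its mean was 5.25 and its change 0.50 ± 0.14 (0.0206), a call lost without either day 0 array (0.50 and 0.51) and with a pseudocount of 64 (0.21). Lama5 was called nowhere, but its second probe set changed by -0.65 at day 10 of 6TCF.

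**Figure D3:**
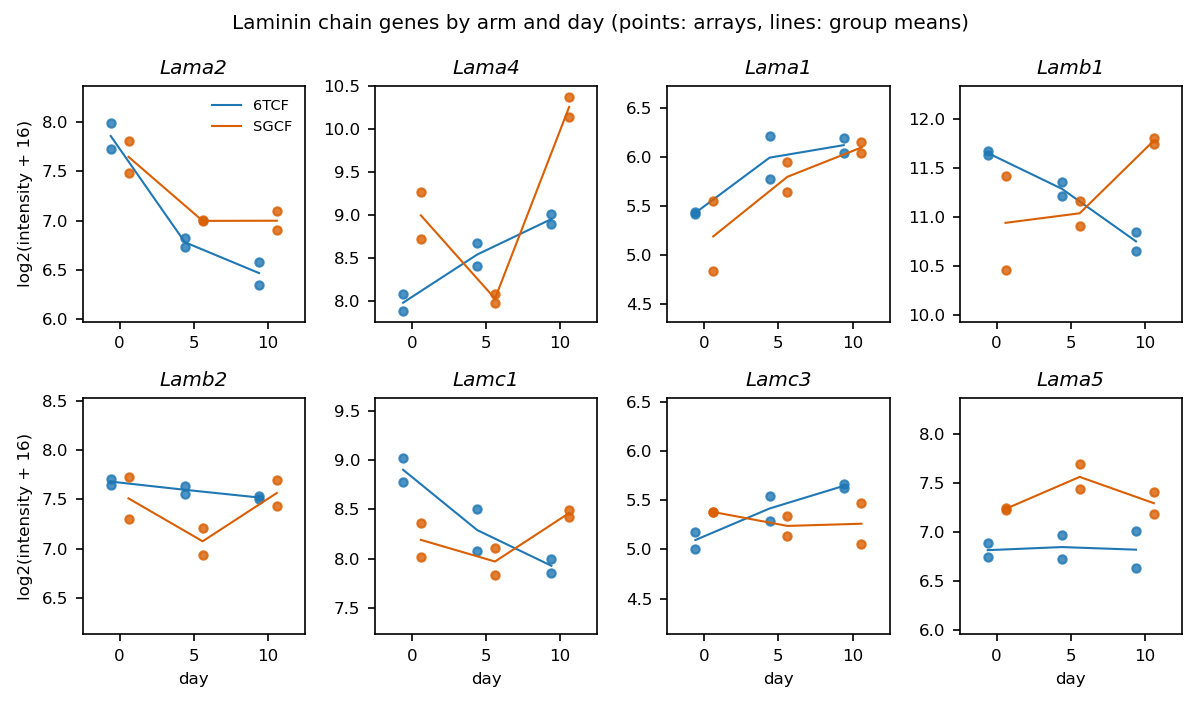
Level of 8 laminin chain genes (y axis, log2(intensity + 16), own range per panel) by day (x axis) in the 6TCF (blue) and SGCF (orange) arms. Points are arrays, 2 per group, and lines join group means. Lama2 falls in both arms, and Lamb1 and Lamc1 end lower under 6TCF than under SGCF.

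Lamb1 and Lamc1, the beta 1 and gamma 1 chains that most laminins share, had the largest differences between the arms at day 10 among the 28 genes tested. Their arrays are given although neither changed 2-fold from day 0, a choice made after their values were seen. Lamb1 (chromosome 12, 31265146 to 31329644) stood at 11.63 and 11.67, 11.22 and 11.36, and 10.66 and 10.85 under 6TCF. Under SGCF it stood at 11.42 and 10.46, 10.91 and 11.17, and 11.81 and 11.75. By day 10 the SGCF arrays were the higher ones, although the SGCF day 0 arrays lay far apart. The day 10 change was -0.90 ± 0.24 (limma adjusted p = 0.00861) under 6TCF and 0.84 ± 0.24 (0.0144) under SGCF, a difference of 1.74 ± 0.33 (0.00365) that each alternative kept. The SGCF rise alone was less steady: 0.36 without replicate 2 of SGCF day 0, 1.32 without replicate 1, and not called without either day 10 array (0.81 and 0.87). The 6TCF fall was not called without replicate 1 of day 10 (-0.80). Its other 2 probe sets gave -0.89 and -0.92 under 6TCF and 0.56 and 0.59 under SGCF.

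Lamc1 (chromosome 1, 153218922 to 153332786) stood at 8.78 and 9.03, 8.08 and 8.50, and 7.86 and 8.0 under 6TCF, and at 8.36 and 8.02, 7.84 and 8.11, and 8.43 and 8.50 under SGCF. At day 10 the SGCF arrays were the higher ones, having been the lower ones at day 0. The 6TCF change was -0.61 ± 0.17 (adjusted p = 0.0195) and -0.98 ± 0.17 (0.000722), and the SGCF change -0.22 ± 0.17 (0.397) and 0.27 ± 0.17 (0.242). The difference at day 10 was 1.25 ± 0.24 (0.00405). The 6TCF day 5 call was lost without replicate 2 of day 0 (-0.49) or replicate 1 of day 5 (-0.40). A second probe set gave -1.02 at day 10 of 6TCF but -0.14 at day 10 of SGCF.

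Of the remaining chains, Lamb2, the beta chain of synaptic and muscle laminins, was called from day 5 to day 10 of SGCF only (0.49 ± 0.16, adjusted p = 0.0446). That call was lost without replicate 1 of day 5 (0.35) or replicate 2 of day 10 (0.36). It was also lost with median scaling or a replicate block (adjusted p = 0.0628 and 0.0597) and with a pseudocount of 1. Lamc3 rose by 0.55 ± 0.15 (0.0121) at day 10 of 6TCF, which was not called without replicate 2 of day 0 (0.46) or replicate 1 of day 10 (0.53), and its size was 0.26 with a pseudocount of 64 and 0.87 with 1.

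Between days 5 and 10 of SGCF, 7 of the 28 members were called, 5 higher and 2 lower, where 21.7% of all genes were called, 11.7% higher and 9.97% lower. The members were Itga8, Itgb5, Lama4, Lamb1 and Lamb2 on the higher side and Itga3 and Itga6 on the lower. Without any 1 of the 4 arrays compared the count was lower, as was the share of all genes called. Over all genes, 54.1% of the calls in this comparison were higher, and 40.3% with median scaling. Lamb1, at 0.74 ± 0.24 (limma adjusted p = 0.0427), was not called without any 1 of the 4 arrays compared (0.61 to 0.87). Its call was also lost with a replicate block (adjusted p = 0.0549), median scaling (0.57), a pseudocount of 1 or no filter on dim genes. Itga3, at -0.44 ± 0.12 (0.0177), was not called without 3 of the 4 arrays compared (-0.39 to -0.47) or with probe sets averaged.

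The arms already differed at day 0, where 7 of 28 members were called, 3 higher in SGCF and 4 lower, against 17.4% of all genes (8.59% higher, 8.81% lower). The higher genes were Lama4 (1.02 ± 0.18), Itgb2 (0.77 ± 0.14) and Itga8 (0.57 ± 0.12). The lower ones were Itga5 (-0.97 ± 0.13), Itga6 (-0.84 ± 0.17), Lamc1 (-0.71 ± 0.17) and Itga3 (-0.60 ± 0.12). Their limma adjusted p ranged from 0.000962 for Itga5 to 0.0178 for Lamc1. The count fell without either 6TCF day 0 array and rose without replicate 1 of SGCF day 0. So did the share of all genes called. Without replicate 2 of 6TCF day 0, Itga3, Itga6, Itga8, Lama4 and Lamc1 were not called (-0.52, -0.74, 0.51, 0.92 and -0.59). Itga8 and Lamc1 were not called without replicate 1 of 6TCF day 0 either, nor Lamc1 without replicate 2 of SGCF day 0. With probe sets averaged, the Itga3 difference was -0.13 and not called. Since each change is counted from its own day 0, a day 0 gap enters the difference between the arms with the opposite sign.

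The change to day 5 differed between the arms for 7 of 28 members, where 8.98% of all genes were called, and the change to day 10 for 9 of 28, where 25.7% were called. Higher changes made up 2.91% of all genes to day 5 and 12.3% to day 10, and lower ones 6.06% and 13.4%. To day 5, Itga5, Itga6 and Itga3 had the higher change under SGCF and Lama4, Itga8, Itgb5 and Itgb2 the lower. The count was lower without either 6TCF day 0, either 6TCF day 5 or either SGCF day 5 array. The share of all genes called was then lower too. Without replicate 1 of SGCF day 0 the count was also lower, but the share was not. To day 10, Lamb1, Lamc1, Itga5, Lama2 and Itgav had the higher change under SGCF, while Itgb2, Lamc3, Itga8 and Itgb4 had the lower. There the count was lower without any 1 of the arrays compared other than replicate 1 of SGCF day 0. So was the share of all genes called. Lama4 to day 5 and Lamb1 to day 10 were called in both arms with opposite signs. Of the calls whose arrays were not weighed above, Itga3 (0.63 ± 0.16, limma adjusted p = 0.0328) and Itgb2 (-0.86 ± 0.19, 0.0147) to day 5 were lost without some arrays (0.55 to 0.70 and -0.72 to -0.87). So were Itga8 (-0.57 ± 0.18, 0.0342), Itgb4 (-0.54 ± 0.18, 0.0492) and Lamc3 (-0.67 ± 0.22, 0.0415) to day 10, at -0.51 to -0.63, -0.40 to -0.58 and -0.46 to -0.76. These 3 were also lost with a pseudocount of 64 (-0.34, -0.26 and -0.31), and Itgb4 and Lamc3 with a replicate block (adjusted p = 0.0536 and 0.0535). Itgb4 was lost with median scaling (-0.55) too, and Lamc3 with probe sets averaged (-0.37).

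**Figure D4:**
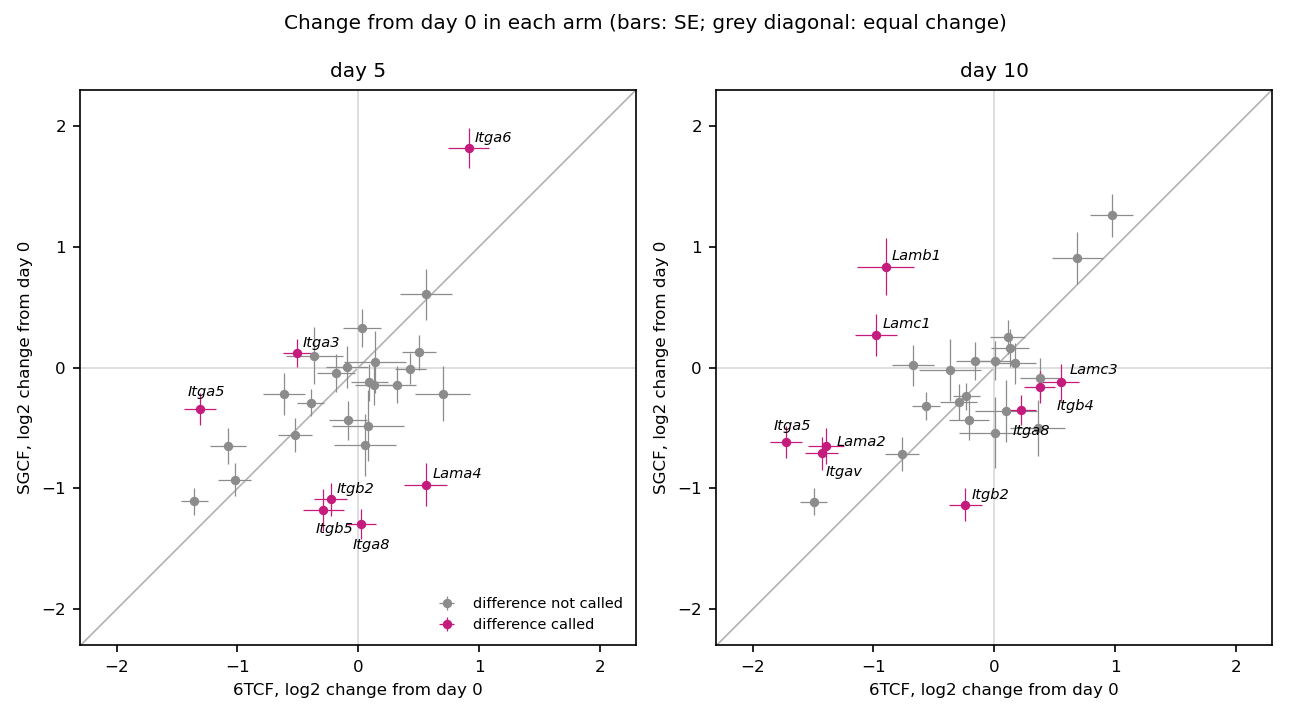
Log2 change from day 0 under 6TCF (x axis) against SGCF (y axis) for the 28 subunit genes tested, at day 5 (left) and day 10 (right). Bars are SE, the diagonal is equal change, and magenta marks a difference called at limma adjusted p under 0.05. Lama4 and Itga8 lie far below the diagonal at day 5, and Lamb1, Lamc1 and Itga5 above it at day 10.

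Genes of the machinery that links integrins to actin fell with Itgb1. Of 26 tested, 17 were lower and 0 higher at day 5 of 6TCF, and 18 lower and 0 higher at day 10, with median log2 changes of -0.53 and -0.88 against -0.00037 and -0.01 over all genes, of which 12.6% and 20.0% were called lower. Under SGCF, 11 were lower and 2 higher at day 5 and 11 lower and 1 higher at day 10, with medians of -0.28 and -0.39, where 12.7% and 18.3% of all genes were called lower. Tns1, the adaptor tensin 1, fell by 2.21 ± 0.16 (limma adjusted p = 7.14e-07) at day 10 of 6TCF and by 1.25 ± 0.16 (8.71e-05) at day 10 of SGCF. Vcl, vinculin, fell by 2.11 ± 0.19 (3.53e-06) and fell by 1.16 ± 0.19 (0.000452). Actn1, the crosslinker alpha-actinin 1, fell by 2.19 ± 0.16 (7.29e-07) at day 10 of 6TCF, and Fermt2, the integrin activator kindlin 2, fell by 1.07 ± 0.12 (1.94e-05) at day 10 of SGCF. In the change to day 10, 12 of the 26 were higher under SGCF than under 6TCF and 0 lower, against 12.3% and 13.4% of all genes, led by Zyx at 1.5 ± 0.28 (0.00307). At day 0, 8 of the 26 were lower in SGCF and 0 higher, against 8.81% and 8.59% of all genes.

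Basement membrane partners of laminin did not share 1 direction. Of 23 tested, 6 were higher and 7 lower at day 10 of 6TCF, and 7 higher and 8 lower at day 10 of SGCF, with median log2 changes of -0.11 and -0.10. Over all genes, 23.2% were higher and 20.0% lower under 6TCF at that day, and 20.5% and 18.3% under SGCF. Col18a1, the endostatin-bearing collagen of basement membranes, rose by 3.48 ± 0.17 (limma adjusted p = 2.31e-08) and by 3.17 ± 0.17 (5.58e-08). Nid1, nidogen 1, which ties laminin to collagen IV through the gamma 1 chain, changed more to day 10 under SGCF than under 6TCF by 1.81 ± 0.29 (0.00127), beside Lamb1 and Lamc1. Nid2 rose by 2.33 ± 0.18 (5.16e-06) from day 5 to day 10 of SGCF, beside Lama4. Some tetraspanins are membrane partners of alpha 3 and alpha 6. Among 8 tetraspanins tested, 5 were higher and 0 lower at day 10 of 6TCF (median 0.59), where 23.2% and 20.0% of all genes were. Cd9 rose there by 1.34 ± 0.13 (limma adjusted p = 7.16e-06). Cd53, which rose there by 1.05 ± 0.19 (0.000876), is also on the leukocyte marker list.

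Integrin ligands were called in both directions. Of 20 tested, 5 were higher and 12 lower at day 10 of 6TCF, and 5 higher and 7 lower at day 10 of SGCF, with median log2 changes of -0.82 and 0.11, beside 23.2% higher and 20.0% lower, and 20.5% and 18.3%, over all genes. Ccn2, a matricellular ligand of alpha v integrins, fell by 4.27 ± 0.13 (limma adjusted p = 1.04e-09) and fell by 3.35 ± 0.13 (7.51e-09). Icam1, the ligand of beta 2 integrins, rose by 2.59 ± 0.14 (4.76e-08) and by 3.46 ± 0.14 (7.51e-09). Npnt, the alpha 8 ligand nephronectin, rose by 2.76 ± 0.20 (8.97e-07) at day 5 of 6TCF. Postn, periostin, fell by 3.75 ± 0.13 (3.9e-09) at day 5 of SGCF and rose by 2.45 ± 0.13 (2.44e-07) from day 5 to day 10, the same days between which Itgb5 and Itga8 dipped and returned.

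**Figure D5:**
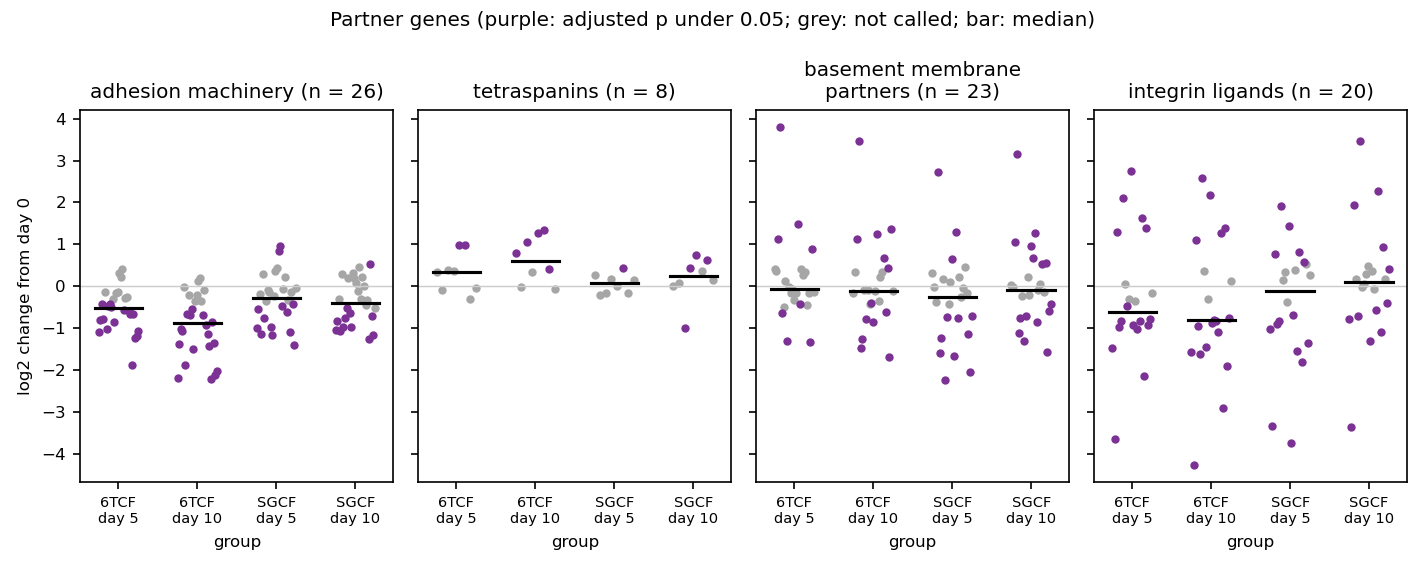
Log2 change from day 0 (y axis) of the tested genes on the 4 partner lists, by arm and day (x axis). Points are genes, purple where limma adjusted p is under 0.05, and bars are medians. The adhesion machinery medians lie below 0 in all 4 groups, from -0.28 to -0.88.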

How the data were processed

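RNA was measured on 12 Affymetrix Mouse Genome 430A 2.0 arrays. The deposited values are linear intensity per probe set, 3.97 to 27193, in 1 table. The submitters' processing notes name MAS5, RMA and limma without saying which made it, and array medians still differed, so the values were normalized again. From the deposited intensity, log2(value + 16) was taken and quantile normalized over 22690 probe sets, 64 controls included. The pseudocount of 16 understates changes of dim genes. The platform annotation gives 20380 non-control probe sets a single symbol, 691 several and 1555 none, and 20351 of the first were matched to RefSeq by Entrez identifier, with 0 symbols updated. The probe set with the highest mean stood for its gene. A gene was tested if its brightest group mean exceeded the 25th percentile of values (5.25), which held for 10674 of 12393. Means of the 6 groups were fitted with limma 3.58.1 in R 4.3.3, with 6 residual and 5.75 prior degrees of freedom. It gave 9 comparisons: each pair of days within an arm, SGCF against 6TCF at day 0, and SGCF minus 6TCF for the change to days 5 and 10. P-values were adjusted by Benjamini-Hochberg over all genes tested, and SE is the moderated standard error.

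The members and gene lists were chosen with earlier results of these data known. Values for every array are given for members called and changed at least 2-fold from day 0 in either arm. Partner genes named are among the 3 called genes with the largest change per list and comparison. The steps were tested on simulated data. Alternatives were another scaling, pseudocount, filter and probe set rule, a replicate block, and each array left out.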

Additional observations from a re-analysis of the deposited data

Results flagged for a closer look

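The change from day 0 differed between the arms for 7 subunit genes at day 5 and 9 at day 10, by limma's test of the difference itself, given as SGCF minus 6TCF on the log2 scale. Among the fibroblast integrins at day 5, the difference was 0.97 for Itga5, 0.91 for Itga6 and 0.63 for Itga3, the subunits that started lower in SGCF. It was -1.32 for Itga8, -0.89 for Itgb5, -0.86 for the leukocyte subunit Itgb2 and -1.53 for the laminin chain Lama4.

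At day 10 the laminin chains Lamb1, Lamc1 and Lama2 differed by 1.74, 1.25 and 0.75. Itga5 differed by 1.11 and Itgav by 0.72. The change was lower under SGCF for Itgb2 (-0.90), Lamc3 (-0.67), Itga8 (-0.57) and Itgb4 (-0.54). The arms also differed in array brightness, and arm and any difference in array processing cannot be told apart.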

How the results depend on the processing

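Of 77 member and comparison pairs called, 42 were called in every alternative that tested the gene. Of the 77, 21 lost the call in some other setting and 33 on leaving out some array. An alternative whose filter left a gene untested was not counted as a loss. When 1 array was left out, the counts of members called ran from 7 to 10 (6TCF day 5), 9 to 12 (6TCF day 10), 1 to 3 (6TCF day 5 to 10), 8 to 11 (SGCF day 5), 8 to 9 (SGCF day 10), 4 to 5 (SGCF day 5 to 10), 3 to 11 (arms at day 0), 3 to 7 (arms, change to day 5) and 4 to 9 (arms, change to day 10). Shares of all genes called moved as well when an array was left out, so these counts do not concern the members alone. A filter at the 50th percentile, which tests 13 members, left 8 called at day 5 of 6TCF, where 36.2% of all genes were called. From day 5 to day 10 of 6TCF it raised the count from 1 to 3, where 25.6% of all genes were called. A pseudocount of 64 gave 2 there, with 20.3% of all genes called. For Lama5 at day 10 of 6TCF, averaging probe sets turned 0.00 into -0.32 (limma adjusted p = 0.028), where its second probe set changed by -0.65. Sign changes of uncalled values numbered 135, the largest of size 0.46, among 3092 alternative values of called and uncalled pairs together. Quantile normalization before the log, chosen after seeing the data, changed 0 calls. With a replicate block the 9 counts were 13, 13, 1, 9, 9, 5, 7, 6 and 7. Same-numbered arrays of 15 pairs of groups correlated at -0.28 to 0.11 in their deviations. With 1 deviation per group, this cannot show whether same-numbered arrays share a culture, embryo or day, and the labels do not say. With 2 arrays a group, precision is limited by their number, and members near the filter level of 5.25 lie close to background.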
